A study of Homo sapiens with 12 samples.

Results

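Human cells carry close copies of several ribosomal protein genes, and 5 such pairs were examined in HL60 cells: RPL22 and RPL22L1, RPS27 and RPS27L, RPL39 and RPL39L, RPL26 and RPL26L1, and RPL36A and RPL36AL. The first gene of each pair is called canonical here and the second its paralogue. They were selected by symbol, with no threshold on a value, although earlier results of these data were known, and all 10 were found among the 59251 genes of the deposited count table. HL60 is a human acute myeloid leukemia line that lacks the PML-RARA fusion. The cells were grown in RPMI1640 with serum and were left non-treated or received all-trans retinoic acid (ATRA), palbociclib, which inhibits CDK4 and CDK6 (CDK4/6i), or the combination (CDK4/6i+ATRA). Each drug was used at 1 µM for 48 h. The RNA-Seq libraries number 3 in each group, labelled as biological replicates, and 12 in all. The results describe this line alone, and a vehicle for the non-treated cells is not given in the sources used here.

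A ribosome holds 1 copy of most of its proteins, so a canonical protein and its paralogue can compete for the same place. RPL22 is a large-subunit protein that mammalian ribosomes can do without, and RPL22 protein is known to hold down the RNA of RPL22L1. RPS27 is a small-subunit zinc finger protein, and RPS27L is known to bind MDM2. RPL39 lines the exit tunnel of the large subunit and RPL39L is best known from male germ cells, while RPL26 and RPL36A are large-subunit proteins with the widely expressed copies RPL26L1 and RPL36AL. Many ribosomal protein messages begin with a 5′ terminal oligopyrimidine (TOP) tract, a C followed by a run of C and T, through which growth signals control their translation.

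The start sites of the pairs are shown because most of the paralogues lacked this tract at their annotated starts. The sequences are from RefSeq on GRCh38.p14 and cover 15 bases before and 15 from the annotated start. Capitals mark the start base and, where it is a C, the pyrimidines that follow it directly.
RPL22, minus strand, chr1:6199581-6199610: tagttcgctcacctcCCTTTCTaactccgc
RPL22L1, minus strand, chr3:170870181-170870210: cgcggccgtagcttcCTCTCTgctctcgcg
RPS27, plus strand, chr1:153990747-153990776: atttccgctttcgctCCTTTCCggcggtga
RPS27L, minus strand, chr15:63157463-63157492: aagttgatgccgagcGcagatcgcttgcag
RPL26, minus strand, chr17:8383179-8383208: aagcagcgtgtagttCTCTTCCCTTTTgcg
RPL26L1 at its first listed start, plus strand, chr5:172958714-172958743: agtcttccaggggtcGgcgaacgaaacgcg
RPL26L1 at its second listed start, plus strand, chr5:172958865-172958894: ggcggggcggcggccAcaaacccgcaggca
RPL36A, plus strand, chrX:101390996-101391025: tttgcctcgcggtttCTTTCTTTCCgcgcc
RPL36AL, minus strand, chr14:49620612-49620641: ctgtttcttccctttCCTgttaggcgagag
RPL39, minus strand, chrX:119791616-119791645: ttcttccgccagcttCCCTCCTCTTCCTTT

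A start at C with at least 4 further pyrimidines was counted as TOP-like. RPL22, RPS27, RPL39, RPL26 and RPL36A met this, with runs of 6, 6, 18, 11 and 9 further pyrimidines, and the run of RPL39 goes on past the bases shown. Of the paralogues RPL22L1 met it, with 5. RPS27L starts at G, RPL26L1 at G or A, and RPL36AL at a C with only 2 further pyrimidines. The same start was found in 47 of 78 promoters (60.3%) of the 63 canonical ribosomal protein genes matched in RefSeq, and in 1429 of all 35116 promoters (4.07%). RPL39L was not matched. The E-box CACGTG, which reads the same on both strands, was searched in the 300 bases around each start. It was found in none of the 10 promoters of the pairs, in 4 of those 78 (5.13%) and in 2548 of all promoters (7.26%). These are matches of letters at annotated starts, and no start was measured here.

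In the deposited table (hg38) the pairs lie apart in the genome. RPL22 (chromosome 1, 6185020 to 6199595, minus strand) and RPS27 (chromosome 1, 153990762 to 153992155, plus) share a chromosome, as do RPL22L1 (chromosome 3, 170864875 to 170870195, minus) and RPL39L (chromosome 3, 187120948 to 187139496, minus). RPL39 (119786504 to 119791630, minus) and RPL36A (101391011 to 101396155, plus) are on chromosome X. RPS27L is on chromosome 15 (63148249 to 63157477, minus), RPL26 on chromosome 17 (8377516 to 8383193, minus), RPL26L1 on chromosome 5 (172954094 to 172969771, plus) and RPL36AL on chromosome 14 (49618530 to 49620626, minus). None is listed on an alternate contig, and each listed length is the sum of all exons, UTRs included. The table starts RPL26L1 upstream of both RefSeq starts shown above.

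How far the copies could exchange reads depends on how alike they are. Over the coding sequence of the GENCODE v44 canonical transcripts, RPL22L1 matched RPL22 at 66.6% of aligned bases, with a longest identical run of 17 bases. RPS27L matched RPS27 at 77.8% (longest run 20 bases), RPL26L1 matched RPL26 at 84.1% (20 bases), RPL36AL matched RPL36A at 89.9% (60 bases) and RPL39L matched RPL39 at 94.8% (44 bases). The first 3 pairs share only short stretches, and the values of the RPL36A and RPL39 pairs are the more uncertain. Pseudogenes named after the canonical genes also took reads, with 27947 counts for RPS27 (11.99% of the sum of gene and pseudogenes), of which 26447 were in RPS27P3. For RPL22, RPL39 and RPL26 they took 0.557%, 2.20% and 1.06%.

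Total counts were 15392648 to 16935515 per library in the non-treated group, 15238994 to 17010052 with ATRA, and 15576806 to 18679544 with CDK4/6i. The CDK4/6i+ATRA group was the shallowest, at 12230923 to 14415276. Replicate libraries differed beyond sampling noise (chi-square per degree of freedom 1.85 to 6.81). The myeloid markers CD33, CEBPE, SPI1 and MPO were present. Levels are given in CPM, counts scaled to a common library total, after TMM normalization in edgeR. MPO was at 6329 to 6658 CPM in non-treated cells, 268 to 322 with ATRA, 3410 to 3539 with CDK4/6i and 24.5 to 33.8 with CDK4/6i+ATRA. SPI1 was at 298 to 303 in non-treated cells and 837 to 867 with CDK4/6i+ATRA, and CEBPE at 165 to 175 and 281 to 289. CD33 was at 91.8 to 96.6 in non-treated cells and 93.7 to 103 with CDK4/6i+ATRA, ranges that overlapped, and in CPM scaled by library size alone it was at 95.2 to 101 and 83.6 to 87.7. ELANE, PRTN3 and AZU1 were listed at 0 in all libraries, and each is also listed on an alternate contig. Of the markers of other cell types HBB and EPCAM were at 0, and COL1A1 at 4 counts or fewer. CD3E was at 0.549 to 0.979 CPM with CDK4/6i+ATRA and 1.97 to 3.06 in the other groups. CD79A was at 12.3 to 16.3 with CDK4/6i+ATRA, 14.7 to 18.2 in non-treated cells and 21.7 to 24.7 with either drug alone. The part of these markers in the results was not tested. In bulk RNA fewer cells of a type and less RNA per cell cannot be told apart.

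The threshold for a call was an adjusted p of 0.05 in edgeR's quasi-likelihood test over the 13318 genes that passed its expression filter. Of the 10 genes 9 passed, and RPL39L did not. The interaction is the log2 fold change with both drugs minus the sum of those with each drug alone. The 3 comparisons share the non-treated libraries.

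Canonical genes stood far above their paralogues in 4 of the 5 pairs. Per kb of the deposited exon length, non-treated cells held 1480 ± 27.2 CPM (SD, n = 3) of RPS27, 1030 ± 18.8 of RPL39, 830 ± 6.49 of RPL26 and 414 ± 20.8 of RPL22. RPL36AL followed at 236 ± 6.66, then RPL26L1 at 26.9 ± 1.63, RPL22L1 at 12.8 ± 0.581 and RPS27L at 7.84 ± 0.338 CPM per kb. No neighbours in this order overlapped within their SD. At the bottom, RPL36A at 0.717 ± 0.675 and RPL39L at 0.158 ± 0.154 CPM per kb did overlap. Of their 761 and 729 exon bases, 333 and 375 are also listed for genes with 0 counts. How reads within those bases were assigned is not known, so both levels are uncertain. The order depends on the length used. RPS27L is 6110 bases long, of which 252 are coding, and per kb of coding sequence it reached 190 CPM and stood above RPL26L1 (82.0) and RPL22L1 (68.6). On that scale RPL22 (2224 CPM per kb) also stood above RPL26 (1726).

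**Figure D1:**
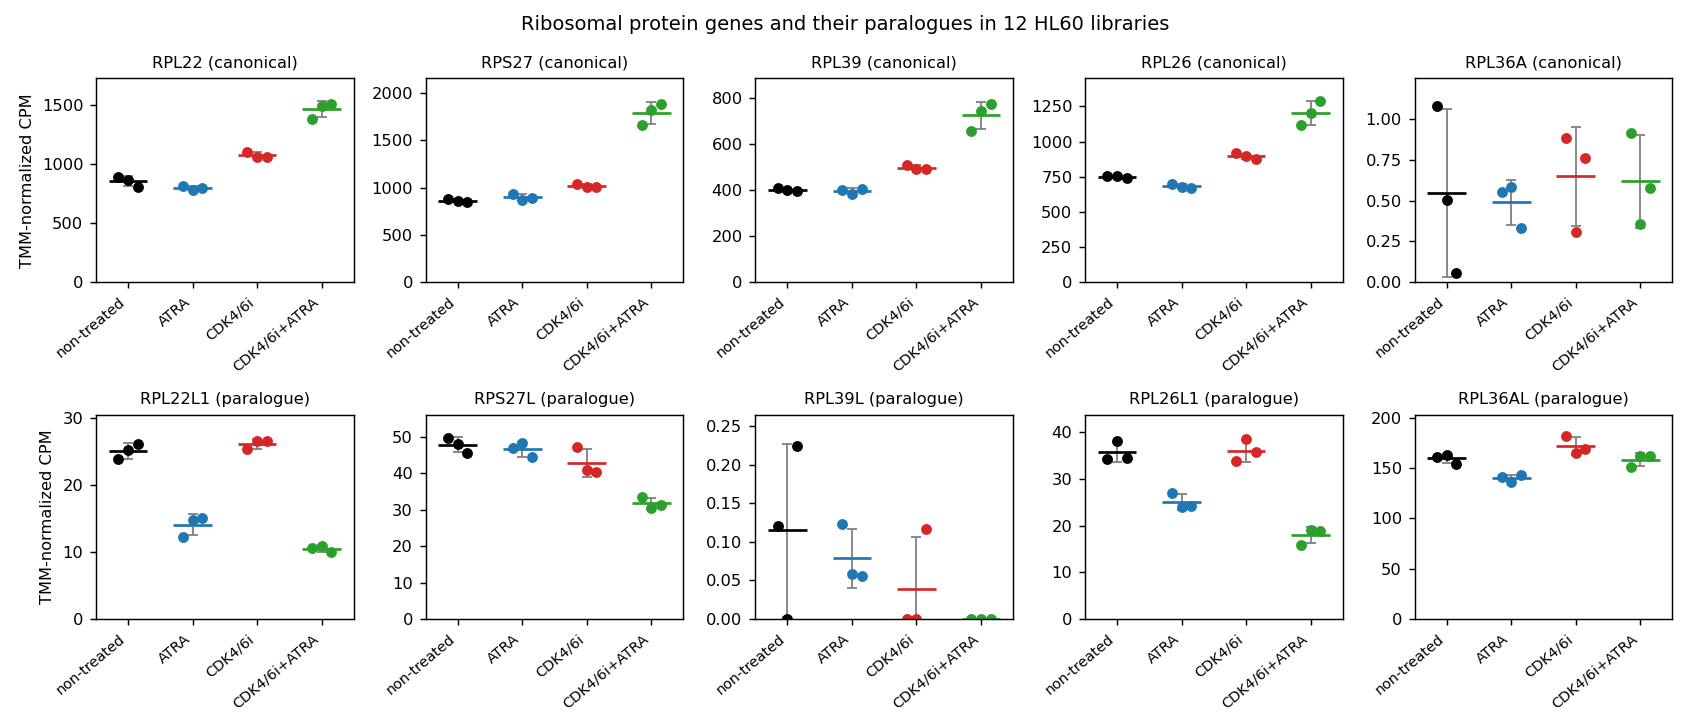
TMM-normalized CPM (linear axes from 0, a scale for each gene) of the 10 genes in each of the 12 libraries, with canonical genes above and their paralogues below. Points are libraries, horizontal lines group means and grey bars the SD (n = 3). With CDK4/6i+ATRA the canonical RPL22, RPS27, RPL39 and RPL26 stand above every other group, and the paralogues RPL22L1, RPS27L and RPL26L1 below every other group.

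With CDK4/6i+ATRA, 4 canonical genes rose and 3 paralogues fell. RPL22, RPS27, RPL39 and RPL26 were called higher and RPL22L1, RPS27L and RPL26L1 lower, while RPL36A and RPL36AL did not pass the test. Over all tested genes 41.0% were called higher and 40.7% lower, so 7 calls among 9 genes is near the background. With scaling by library size alone the 5461 higher and 5424 lower calls became 4375 and 6431, the 7 genes kept their calls and signs, and RPL36AL was called lower (log2 −0.28, edgeR adjusted p = 5.18e-08).

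RPL22 measured 889, 867 and 806 CPM in non-treated cells and 819, 778 and 800 with ATRA. RPL22 measured 1102, 1063 and 1060 with CDK4/6i, and CDK4/6i+ATRA gave 1386, 1491 and 1512. Its groups overlapped only between non-treated and ATRA-treated cells. It rose 1.71-fold with CDK4/6i+ATRA (log2 0.78 ± 0.0428 SE, edgeR adjusted p = 3.57e-22) and 1.26-fold with CDK4/6i (log2 0.33 ± 0.0426, edgeR adjusted p = 3.01e-09). With ATRA its log2 fold change of −0.10 ± 0.0427 only just passed (edgeR adjusted p = 0.0421). That call was lost with DESeq2 (adjusted p = 0.168), with DESeq2's size factors, with library size alone, with only the groups compared, with a filter of 10 counts in every library, and without any of non-treated replicate 1 or 2, ATRA replicate 2 or 3 or CDK4/6i replicate 1.

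RPL22L1 measured 23.9, 25.3 and 26.2 CPM in non-treated cells and 12.3, 14.9 and 15.2 with ATRA. RPL22L1 measured 25.4, 26.6 and 26.6 with CDK4/6i, and CDK4/6i+ATRA gave 10.6, 10.95 and 9.99. All ATRA-exposed libraries lay below all others, and non-treated and CDK4/6i-treated cells overlapped. RPL22L1 fell to 0.562 of the non-treated level with ATRA (log2 −0.83 ± 0.0852 SE, edgeR adjusted p = 3.26e-12) and to 0.418 with CDK4/6i+ATRA (log2 −1.26 ± 0.0975, edgeR adjusted p = 1.54e-16). With CDK4/6i alone its log2 fold change was 0.06 ± 0.0779 (edgeR adjusted p = 0.551).

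RPS27 measured 881, 863 and 849 CPM in non-treated cells and 931, 868 and 894 with ATRA. RPS27 measured 1044, 1007 and 1010 with CDK4/6i, and CDK4/6i+ATRA gave 1657, 1821 and 1886. Both groups given CDK4/6i lay above the other groups. It rose 2.07-fold with CDK4/6i+ATRA (log2 1.05 ± 0.0436 SE, edgeR adjusted p = 3.65e-27) and 1.18-fold with CDK4/6i (log2 0.24 ± 0.0433, edgeR adjusted p = 5.18e-06). With ATRA its log2 fold change was 0.05 ± 0.0434 and did not pass (edgeR adjusted p = 0.272), but it was called higher with library size alone (0.09) and with only the groups compared (0.10). Its most counted pseudogene, RPS27P3, had a log2 fold change of 0.99 ± 0.0423 with CDK4/6i+ATRA (edgeR adjusted p = 8.94e-27), and whether its reads come from RPS27 was not tested.

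RPS27L measured 49.8, 48.2 and 45.7 CPM in non-treated cells and 46.9, 48.4 and 44.5 with ATRA. RPS27L measured 47.2, 40.9 and 40.3 with CDK4/6i, and CDK4/6i+ATRA gave 33.4, 30.6 and 31.3. The first 3 groups overlapped and the CDK4/6i+ATRA libraries stood apart below them. RPS27L fell to 0.664 of the non-treated level with CDK4/6i+ATRA (log2 −0.59 ± 0.0684 SE, edgeR adjusted p = 6.48e-11). With CDK4/6i it was called at a log2 fold change of −0.16 ± 0.0613 (edgeR adjusted p = 0.0247), but not with DESeq2 (adjusted p = 0.103) nor without non-treated replicate 1 or 2 or CDK4/6i replicate 2 or 3. With ATRA the value was −0.04 ± 0.0609 (edgeR adjusted p = 0.580).

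RPL26 measured 755, 754 and 744 CPM in non-treated cells and 701, 675 and 669 with ATRA. RPL26 measured 916, 895 and 877 with CDK4/6i, and CDK4/6i+ATRA gave 1115, 1202 and 1286. The 4 groups did not overlap. RPL26 rose 1.60-fold with CDK4/6i+ATRA (log2 0.68 ± 0.0424 SE, edgeR adjusted p = 5.18e-20) and 1.19-fold with CDK4/6i (log2 0.26 ± 0.0422, edgeR adjusted p = 9.57e-07), and fell to 0.908 of the non-treated level with ATRA (log2 −0.14 ± 0.0424, edgeR adjusted p = 0.00334).

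RPL26L1 measured 34.3, 38.1 and 34.5 CPM in non-treated cells and 26.9, 24.0 and 24.2 with ATRA. RPL26L1 measured 33.8, 38.5 and 35.7 with CDK4/6i, and CDK4/6i+ATRA gave 15.9, 19.1 and 18.7. As with RPL22L1, the ATRA-exposed libraries lay below the others, whereas non-treated and CDK4/6i-treated cells overlapped. RPL26L1 fell to 0.702 of the non-treated level with ATRA (log2 −0.51 ± 0.0728 SE, edgeR adjusted p = 2.37e-08) and to 0.504 with CDK4/6i+ATRA (log2 −0.99 ± 0.0827, edgeR adjusted p = 2.34e-15). With CDK4/6i its log2 fold change was 0.01 ± 0.0693 (edgeR adjusted p = 0.885). It shares 47 of its 1325 exon bases with the antisense gene RPL26L1-AS1, which had 29 counts in all, and whether reads were counted by strand is not given in the sources used here.

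RPL39 measured 410, 400 and 396 CPM in non-treated cells and 400, 384 and 407 with ATRA. RPL39 measured 510, 493 and 491 with CDK4/6i, and CDK4/6i+ATRA gave 659, 744 and 774. Non-treated and ATRA-treated cells overlapped, and each group given CDK4/6i stood apart. RPL39 rose 1.81-fold with CDK4/6i+ATRA (log2 0.85 ± 0.0426 SE, edgeR adjusted p = 6.80e-24) and 1.24-fold with CDK4/6i (log2 0.31 ± 0.0424, edgeR adjusted p = 1.38e-08). With ATRA its log2 fold change was −0.02 ± 0.0426 (edgeR adjusted p = 0.735).

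RPL39L was at the limit of detection. It had 2, 0 and 4 counts in non-treated cells and 2, 1 and 1 with ATRA. RPL39L then had 0, 0 and 2 with CDK4/6i and 0 in all CDK4/6i+ATRA libraries, 12 counts in total against 91978 for RPL39. In 6 of 12 libraries it was at 0, which allows up to 3 counts. No fold is given, since nearly all libraries were at or under that floor. Of the 381 bases of its last exon 375 are also listed for the pseudogene RPL39P19, which had 0 counts. RPL39L has 729 exon bases in all, and how reads within the shared ones were assigned is not known.

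RPL36A, although the canonical gene of its pair, was barely counted. It had 18, 8 and 1 counts in non-treated cells and 9, 10 and 6 with ATRA. RPL36A had 17, 5 and 13 with CDK4/6i, and CDK4/6i+ATRA gave 10, 4 and 7 (108 in total). Exons 1 to 4 of RPL36A, 36, 106, 68 and 123 bases long, lie wholly within exons of the read-through gene RPL36A-HNRNPH2, which had 0 counts, and only the 428 bases of exon 5 are listed for RPL36A alone. Its pseudogenes held 4688 counts, 97.7% of the sum with RPL36A, led by RPL36AP37 with 3538. The log2 fold changes of RPL36A lay between −0.15 and 0.29 with SE of 0.520 or more, and did not pass.

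**Figure D2:**
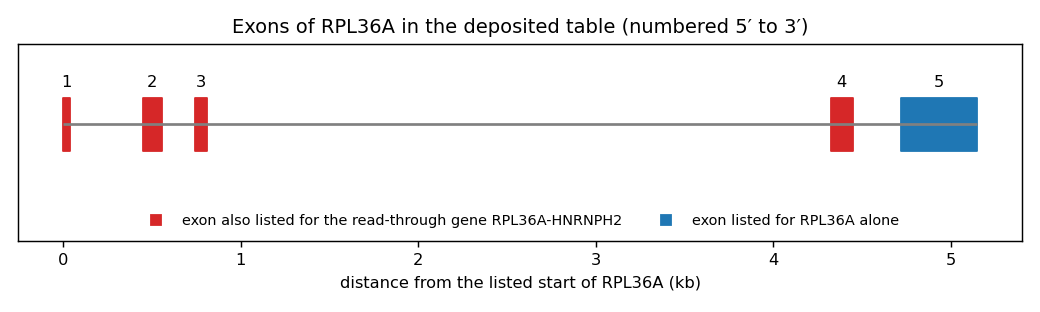
Exons of RPL36A as listed in the deposited table, against the distance in kb from its listed start. Exons 1 to 4 (red) are also listed for the read-through gene RPL36A-HNRNPH2, and exon 5 of 428 bases (blue) is listed for RPL36A alone.

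RPL36AL, in contrast, was well counted. It measured 161, 163 and 154 CPM in non-treated cells and 141, 136 and 143 with ATRA. RPL36AL measured 182, 165 and 169 with CDK4/6i, and CDK4/6i+ATRA gave 151, 162 and 162. The ATRA libraries lay below all others. It fell to 0.878 of the non-treated level with ATRA (log2 −0.19 ± 0.0410 SE, edgeR adjusted p = 7.84e-05). With CDK4/6i it was called at a log2 fold change of 0.11 ± 0.0403 (edgeR adjusted p = 0.0179), a call lost with no filter and without non-treated replicate 3 or CDK4/6i replicate 1. With CDK4/6i+ATRA its value was −0.01 ± 0.0421 (edgeR adjusted p = 0.811), and it was called lower with library size alone (−0.28) and with no filter (−0.12).

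With ATRA alone none of the 9 genes was called higher and 5 were called lower (RPL22, RPL22L1, RPL26, RPL26L1 and RPL36AL), where 32.1% of all tested genes were called higher and 35.5% lower. With CDK4/6i alone 5 were called higher (RPL22, RPS27, RPL39, RPL26 and RPL36AL) and RPS27L lower, where 28.3% of all tested genes were called higher and 27.9% lower. Among the paralogues, RPL22L1 and RPL26L1 were called with ATRA and not with CDK4/6i.

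For 7 of the 9 genes the change with both drugs departed from the sum of the changes with each alone. RPL22, RPS27, RPL39 and RPL26 had positive interactions of 0.54, 0.76, 0.56 and 0.56 (log2, SE 0.0598 to 0.0612), and their largest edgeR adjusted p was 8.92e-11. RPL22L1, RPS27L and RPL26L1 had negative ones of −0.48, −0.39 and −0.49 (SE 0.0921 to 0.131), with edgeR adjusted p = 0.00165, 0.000306 and 0.000201. RPL36AL had an interaction of 0.07 ± 0.0585 (edgeR adjusted p = 0.363). Over all tested genes 24.5% had a called positive and 27.0% a called negative interaction. Scaling by library size alone moved the median of all genes to −0.25 with CDK4/6i+ATRA and to −0.34 for the interaction, and left 1375 positive against 6059 negative interactions in place of 3258 against 3594. Under it those 7 genes kept their calls and signs, with interactions of 0.22 for RPL22, 0.44 for RPS27, 0.24 for RPL39, 0.24 for RPL26, −0.80 for RPL22L1, −0.71 for RPS27L and −0.81 for RPL26L1. RPL36AL turned to a called interaction of −0.25. The log2 fold changes with CDK4/6i+ATRA became 0.51 for RPL22 and 0.41 for RPL26.

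**Figure D3:**
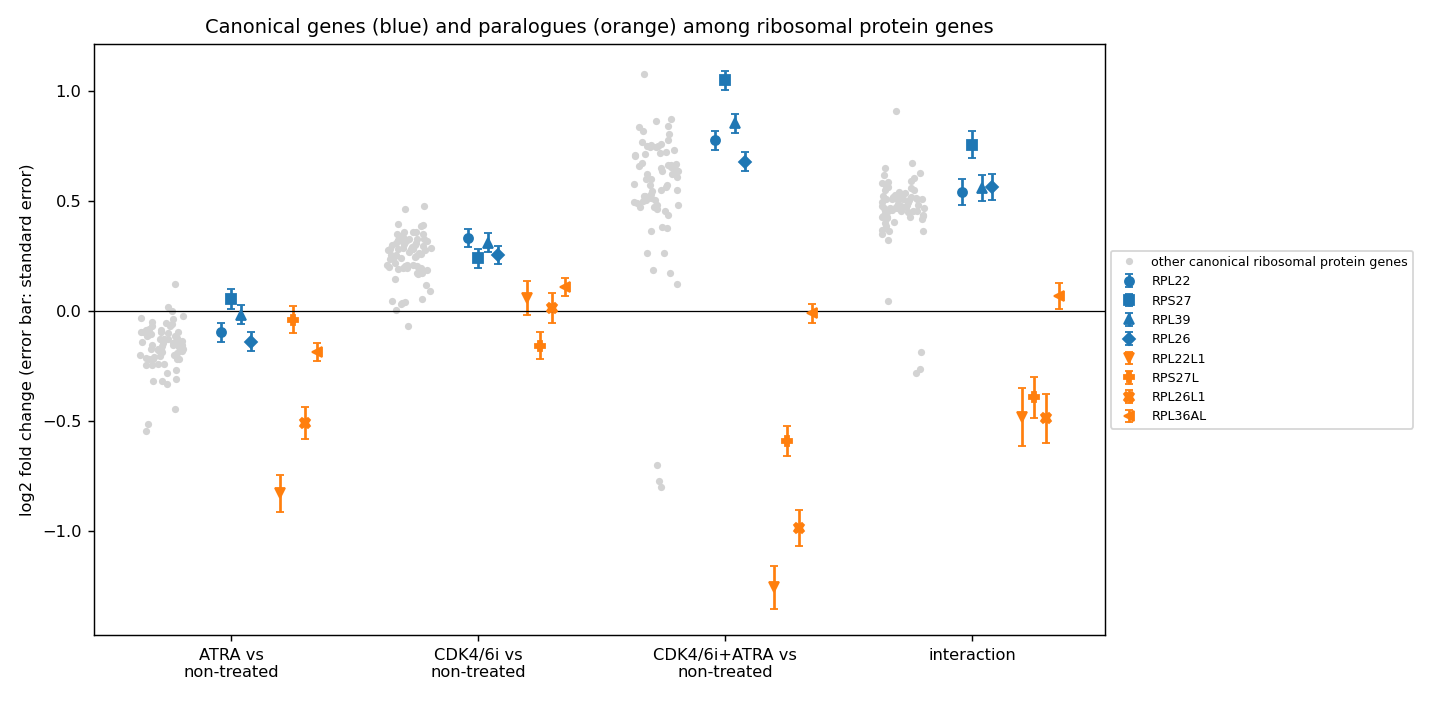
Log2 fold changes (± SE) of 4 canonical genes (blue) and 4 paralogues (orange) in the 3 comparisons with non-treated cells and the interaction, beside the other tested canonical ribosomal protein genes (grey). With CDK4/6i+ATRA the blue points lie between 0.68 and 1.05 among the grey ones, and RPL22L1 and RPL26L1 lie below all of them.

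With CDK4/6i+ATRA, RPL22, RPS27, RPL39 and RPL26 lay among the other ribosomal protein genes, and the paralogues lay at or below the lower end of that list. Of 79 canonical ribosomal protein genes 77 were tested. CDK4/6i+ATRA gave 73 calls higher and 3 lower. The median log2 fold change of the 77 was 0.62, and that of all tested genes 0.02. The highest were RPS9 (1.08), RPS27 (1.05) and RPLP1 (0.87), and the lowest RPL17 (−0.80), RPS10 (−0.77) and RPS26 (−0.70). RPS9 and RPS10 had the wide SE of 0.202 and 0.216. Over the 12 libraries RPS9, RPS10 and RPL17 had only 722, 795 and 2546 counts, against 38725 for RPS26 and 205103 for RPS27. The ends of the list thus rest in part on thinly counted genes. RPS27 ranked 2nd, RPL39 5th, RPL22 11th and RPL26 27th. RPL22L1 and RPL26L1 stood below all 77, at −1.88 and −1.61 from their median. RPS27L and RPL36AL stood below 74 of them, at −1.21 and −0.63 from it. Of these genes 7 are also listed on alternate contigs, RPS9 among them.

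With CDK4/6i 68 of the 77 were called higher and 0 lower (median 0.26 against 0.02), and with ATRA 0 higher and 58 lower (median −0.15 against −0.03). With ATRA the paralogues were spread over that list, with 8 of the 77 above RPS27L, 54 above RPL36AL, 75 above RPL26L1 and 77 above RPL22L1. With CDK4/6i 69 of the 77 stood above RPL36AL, 70 above RPL22L1, 75 above RPL26L1 and 77 above RPS27L. The interaction was called positive for 73 and negative for RPS26, with a median of 0.50 against −0.02. With library size alone the median with CDK4/6i+ATRA was 0.35 and that of the interaction 0.18. The share of all counts taken by the 79 genes was 9.78% ± 0.117 (SD, n = 3) without treatment. It was 9.04% ± 0.172 with ATRA, and 11.9% ± 0.108 with CDK4/6i, while CDK4/6i+ATRA gave 12.4% ± 0.509.

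Within a pair the paralogue can be set directly against its canonical gene, in a ratio whose change depends neither on gene length nor on the scaling of the libraries. RPL22L1 had 2.69, 2.92 and 3.24 counts per 100 counts of RPL22 in non-treated cells and 1.496, 1.91 and 1.90 with ATRA. RPL22L1 had 2.30, 2.50 and 2.51 with CDK4/6i, and CDK4/6i+ATRA gave 0.766, 0.734 and 0.660. No group overlapped another. The fall with CDK4/6i+ATRA was 4.08-fold (log2 −2.03 ± 0.101 SE), against log2 changes of −0.74 with ATRA and −0.27 with CDK4/6i.

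RPS27L had 5.65, 5.59 and 5.38 counts per 100 counts of RPS27 in non-treated cells and 5.04, 5.58 and 4.98 with ATRA. RPS27L had 4.52, 4.06 and 3.99 with CDK4/6i, and CDK4/6i+ATRA gave 2.02, 1.68 and 1.66. Here non-treated and ATRA-treated cells overlapped. The fall with CDK4/6i+ATRA was 3.11-fold (log2 −1.64 ± 0.0932 SE), against −0.09 with ATRA and −0.40 with CDK4/6i.

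RPL26L1 had 4.54, 5.06 and 4.64 counts per 100 counts of RPL26 in non-treated cells and 3.84, 3.56 and 3.62 with ATRA. RPL26L1 had 3.69, 4.30 and 4.07 with CDK4/6i, and CDK4/6i+ATRA gave 1.43, 1.59 and 1.46. Cells given 1 drug overlapped each other and lay between the other groups. The fall with CDK4/6i+ATRA was 3.18-fold (log2 −1.67 ± 0.0677 SE), against −0.37 with ATRA and −0.24 with CDK4/6i. Per kb of exon, the paralogue in non-treated cells came to 3.09% of RPL22, 0.529% of RPS27 and 3.24% of RPL26, and with CDK4/6i+ATRA to 0.754%, 0.171% and 1.02%.

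**Figure D4:**
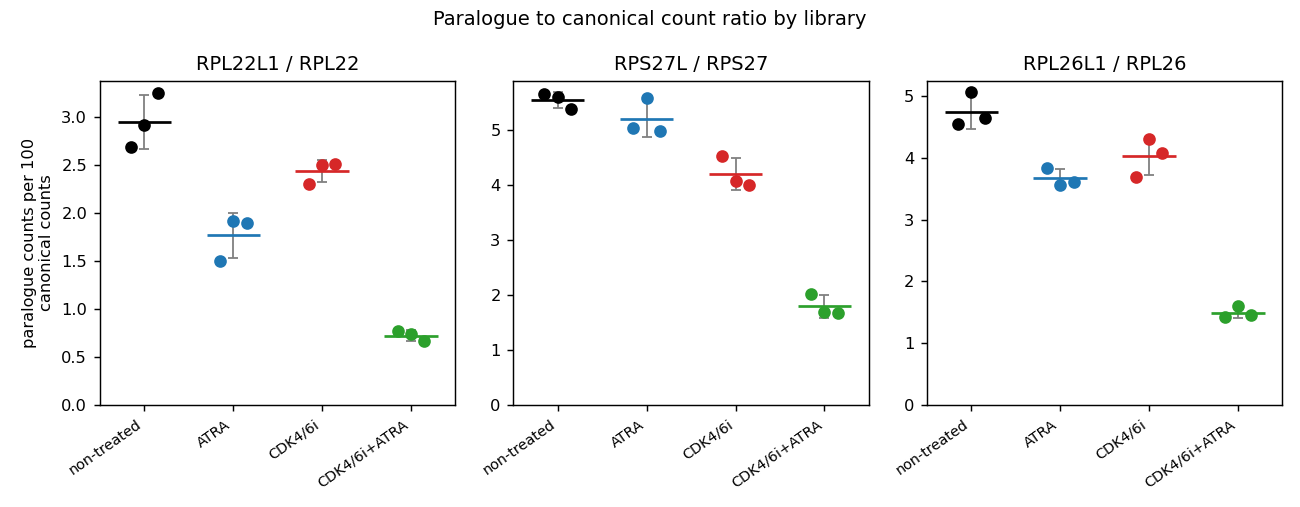
Paralogue counts per 100 canonical counts (linear axes from 0) in the 12 libraries for RPL22L1/RPL22, RPS27L/RPS27 and RPL26L1/RPL26. Points are libraries, horizontal lines group means and grey bars the SD (n = 3). In each panel the CDK4/6i+ATRA libraries lie below every other library, with means of 0.720, 1.79 and 1.49.

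Each drug lowered these 3 ratios when averaged over cells with and without the other drug. The log2 effect of ATRA was −1.25 for RPL22L1/RPL22 and −0.90 for RPL26L1/RPL26, and that of CDK4/6i was −0.78 and −0.77 (each p = 0.005 in a two-sided exact permutation test over the libraries, the smallest it can give, and 0.01 adjusted over 10 ratio tests). For RPS27L/RPS27 the effect of ATRA was −0.66 (exact permutation p = 0.01, adjusted 0.0167) and that of CDK4/6i −0.97 (exact permutation p = 0.005, adjusted 0.01). The effects were uneven. ATRA moved the RPS27L/RPS27 ratio by −0.09 without CDK4/6i and by −1.23 with it, RPL22L1/RPL22 by −0.74 and −1.76, and RPL26L1/RPL26 by −0.37 and −1.43. The difference between these strata was not tested for the ratios.

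The other pairs gave ratios that rest on few counts. For RPL36AL/RPL36A the effects were −0.38 and −0.39 (both exact permutation p adjusted to 0.62). With the pseudogene counts, 97.7% of the sum, added to RPL36A, the effect of ATRA was −0.44 and passed (exact permutation p adjusted to 0.0438), and that of CDK4/6i was −0.30 (exact permutation p adjusted to 0.0833). For RPL39L/RPL39 the effect of ATRA was −0.35 (exact permutation p = 0.57, adjusted 0.62) and that of CDK4/6i −1.77 (exact permutation p = 0.025, adjusted 0.0357). With RPL39L at 0 in 6 libraries, the last value moves with RPL39 and with the 0.5 counts added before taking logs, and it was −0.64 with 5 counts added. It missed the threshold without any of non-treated replicate 1 or 3 or CDK4/6i replicate 1 or 2 (−1.65, −1.45, −1.53 and −1.61, exact permutation p adjusted to 0.0786 to 0.0929).

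Of the 3 further ribosomal protein paralogues examined, only RPL7L1 had more than 2 counts in a library. RPL7L1, a nuclear protein related to RPL7, measured 333, 334 and 324 CPM in non-treated cells and 192, 190 and 201 with ATRA. RPL7L1 measured 289, 302 and 299 with CDK4/6i, and CDK4/6i+ATRA gave 192, 175 and 165. It fell with ATRA (log2 −0.77 ± 0.0401 SE, edgeR adjusted p = 1.15e-22), with CDK4/6i (−0.16 ± 0.0391, edgeR adjusted p = 0.000599) and with both (−0.90 ± 0.0417, edgeR adjusted p = 3.18e-25), and its interaction of 0.02 did not pass (edgeR adjusted p = 0.776). RPL3L, the copy of RPL3 known from muscle, had 0 to 2 counts per library and is also listed on an alternate contig, and RPL10L, a germ cell copy of RPL10, had 0 in every library.

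MDM2 and CDKN1A were read beside RPS27L. MDM2, a ubiquitin ligase that RPS27L is known to bind, had a log2 fold change of −0.22 with CDK4/6i (edgeR adjusted p = 0.00056), and those of 0.07 with ATRA and 0.08 with CDK4/6i+ATRA did not pass. CDKN1A, which encodes the CDK inhibitor p21, had 2, 8 and 1 counts in non-treated cells and 112, 127 and 114 with ATRA. CDKN1A had 16, 12 and 12 with CDK4/6i, and CDK4/6i+ATRA gave 258, 205 and 251. Its edgeR calls were higher in all 3 comparisons. RPS27L and CDKN1A thus moved in opposite directions with CDK4/6i+ATRA.

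The genes most like each paralogue over the 12 libraries were sought among 9292 tested genes with a mean of at least 5 CPM. The measure was Pearson's r on log2(CPM + 1), given as a description, since the 12 points share 4 groups. For RPL22L1 they were NR1D1 (r = 0.994) and TRUB2 (0.993), for RPL26L1 POLR3B (0.993) and MRPL24 (0.988), for RPS27L ELOVL5 (0.968) and RTN4IP1 (0.967), and for RPL36AL EIF3K and SEC61A1 (both 0.963). The 10 members were left out of the search. With its own canonical gene r was −0.467 for RPL22L1, −0.545 for RPL26L1, −0.955 for RPS27L and 0.235 for RPL36AL.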

How the data were processed

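The authors trimmed the reads with Trimmomatic 0.33, aligned them to hg38 with STAR 2.7.11a and used the gene models of NCBI RefSeq. The authors deposited raw counts per gene, whole numbers without normalization, with exon positions and lengths. The study names RSEM as the counter, whereas the table has the layout of featureCounts output, and the library kit was directional. The counting parameters for strand and for reads that fit several places are not given in the sources used here. How reads shared by RPL36A, its read-through gene and pseudogenes were assigned is therefore not known. The same holds for reads shared by RPL39L and RPL39P19. The members and gene lists were chosen with earlier results of these data known.

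Genes were filtered with filterByExpr, normalized with TMM and tested in edgeR 4.0.16 (R 4.3.3) with quasi-likelihood F tests in 1 model of all 4 groups (8 residual degrees of freedom, biological coefficient of variation 3.70%, Benjamini-Hochberg adjustment over all 13318 tested genes, threshold 0.05). The study used DESeq2, which was run as an alternative (version 1.42.0). The ratio of paralogue to canonical counts was taken as log2 with 0.5 added to each count. It was tested by a two-sided exact permutation test of the labels of 1 drug within cells with and without the other. Alternatives were a replicate block, a fit of only the groups compared, no filter or a filter of 10 counts in every library, scaling by library size alone or by DESeq2's size factors, and leaving out each library. For the ratios they were 5 counts added, pseudogene counts added and percent of the pair. Coding length was added after seeing the data. The scripts were tested on simulated data.

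Named are all 10 members, the 3 highest and 3 lowest canonical ribosomal protein genes with both drugs, 3 further paralogues, MDM2 and CDKN1A, the 2 genes most like each paralogue, and overlapping genes and pseudogenes. RPL39L failed the filter and had no such search. Some genes that the lists cover are not reported here. At 12230923 to 18679544 counts per library, genes at 3 counts or fewer were not measurable, a floor that covers counting error only. Python 3.11.15 was used with numpy 2.4.6, pandas 2.3.3, scipy 1.17.1 and, for figures, matplotlib 3.10.9.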

Additional observations from a re-analysis of the deposited data

Results flagged for a closer look

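For 7 members the effect of 1 drug differed with the presence of the other, by edgeR's test of the interaction. The log2 interaction was 0.54 for RPL22, 0.76 for RPS27, 0.56 for RPL39 and 0.56 for RPL26, all canonical genes. It was −0.48 for RPL22L1, −0.39 for RPS27L and −0.49 for RPL26L1, all paralogues. Called interactions were common over all tested genes (24.5% positive and 27.0% negative), and the CDK4/6i+ATRA libraries were also the shallowest.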

How the results depend on the processing

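The falls of the RPL22L1/RPL22, RPS27L/RPS27 and RPL26L1/RPL26 ratios kept their direction and call under every alternative run. Under the replicate block the ratio test used differences between same-numbered libraries, and the smallest p it can give is coarse. There the adjusted calls also relied on RPL39L/RPL39 for CDK4/6i reaching that p, and that ratio rests on few counts. The totals of genes called stayed within 1.5 times. By direction, library size alone changed the interaction calls from 3258 positive and 3594 negative to 1375 and 6059. The replicate block gave 8916, 7393, 10824 and 6775 calls for ATRA, CDK4/6i, CDK4/6i+ATRA and the interaction. The numbers were not taken to pair the libraries: none of 18 same-numbered pairs had deviations correlated above 0.1, and 2 of 12 libraries correlated best with their own number. Under the block RPL22 lost its ATRA call (edgeR adjusted p = 0.0644), and the RPL36A interaction turned to −0.026. The cause of the following changes was not tested. RPL36AL/RPL36A passed for ATRA with pseudogene counts added (−0.44, exact permutation p adjusted to 0.0438), and RPL39L/RPL39 missed for CDK4/6i as a percent of the pair (−0.0203 percentage points). Leaving out 1 library gave ranges of −0.79 to 0.048 and −2.21 to −1.45 for RPL39L/RPL39 (ATRA and CDK4/6i), and −0.77 to 0.14 and −0.78 to 0.13 for RPL36AL/RPL36A. Log2 fold changes near 0 changed sign. With ATRA, RPS27L reached 0.0013 with library size alone and 0.011 with only the groups compared. RPL39 with ATRA reached 0.015 with DESeq2's size factors, 0.023 with library size alone, 0.0093 with at least 10 counts in every library, 0.033 with only the groups compared and 0.0089 with DESeq2, and −0.036 to 0.0052 without 1 library. RPL36A ranged without 1 library from −0.70 to 0.84 with ATRA, −0.27 to 1.27 with CDK4/6i, −0.38 to 1.16 with both and −0.94 to 0.59 for the interaction. RPL26L1 ranged from −0.036 to 0.062 with CDK4/6i, and RPL36AL from −0.043 to 0.021 with both. With library size alone RPL36A turned to −0.073 with both and −0.27 for the interaction, and RPL36AL to −0.25 for the interaction. With no filter these interactions were −0.035 (RPL36A) and −0.019 (RPL36AL). RPL36AL with both was 0.0067 with DESeq2's size factors and 0.021 with at least 10 counts in every library.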
